A study of Mus musculus with 13 samples.

Results

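The aryl hydrocarbon receptor (AhR), its dimer partner and 6 genes it is known to switch on were followed in mouse CD4+ T cells from hosts given either of a pair of AhR ligands or vehicle. The 8 genes were Ahr, Arnt, Ahrr, Cyp1a1, Cyp1b1, Tiparp, Nqo1 and Xdh, out of 22180 genes that could be named on the array. They were chosen as known parts of the pathway, with earlier results of these data known, and each was read from the probe set (the group of probes on the array that reports one transcript) that names only that gene and has the highest mean over all 13 arrays. The 8 genes had 9 such probe sets, because Tiparp had a second one, and all 8 genes were among the 12710 that were tested.

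AhR is a receptor that waits in the cytoplasm in a complex with the chaperone HSP90 and moves to the nucleus when a ligand binds. There it pairs with ARNT, and the pair binds short DNA motifs called xenobiotic response elements and activates genes of foreign-compound metabolism, among them genes such as Ahrr and Tiparp whose products act back on the receptor. In CD4+ T cells AhR is known for its influence on the choice between regulatory and inflammatory fates.

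Splenocytes from C57BL/6 donors, labelled with the division dye CFSE, were injected intravenously into B6D2F1 hosts, which sets off a graft-versus-host response. The animals were bought at 10 to 12 weeks of age. Donor and host genotypes were the same in every group, and no allele was altered. Alloresponding CD4+ T cells, with a minimum of 2 divisions by dye dilution, were purified from spleen and lymph node with CD4 microbeads and flow sorting on day 3, the 72 h time point. The vehicle group (4 arrays) received vehicle on each of days 0 to 2, the TCDD group (4 arrays) a single dose of 15 µg/kg of this dioxin on day 0, and the Cl-BBQ group (5 arrays) 10 mg/kg of this second AhR ligand on each of days 0 to 2, all into the peritoneum. Ligand, dose and schedule therefore cannot be told apart in any difference between the ligand groups. The TCDD and vehicle groups also differ in schedule as described, so ligand and schedule cannot be told apart in the TCDD differences from vehicle. The labels call the samples biological replicates and do not say whether each RNA came from 1 mouse or from a pool. The p-values therefore set a group difference against the spread between these samples, which need not be that between single mice. The samples are sorted populations, in which fewer cells of a type and less RNA per cell cannot be told apart.

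All levels below are log2 expression values as deposited, and a difference of 1 is a doubling. A level of 4.31, the median of all values, served as the floor under which a probe set was treated as not above background. Array medians lay between 4.27 and 4.33. A gene is called higher or lower where limma's adjusted p is under 0.05, and all intervals are 95% intervals of a log2 difference.

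The promoters of the members that have an entry in the RefSeq table for GRCm38.p6 (6 of the 8) are shown first, because the receptor pair is known to bind the core letters GCGTG of its response element. The 250 bases before the annotated start were searched on both strands for GCGTG, for the longer form TNGCGTG, which contains that core, and for TGACNNNGC, the antioxidant response element bound by NRF2. GCGTG was present in 28.2% of 32851 promoters of this length, TNGCGTG in 4.1% and TGACNNNGC in 10.2%. The sequences of the 4 target genes that hold the core and of Arnt, the partner, which was not called in any comparison, follow with GCGTG, or CACGC where the core lies on the other strand, in capitals.
Cyp1a1, chr9:57697363-57697612, plus strand: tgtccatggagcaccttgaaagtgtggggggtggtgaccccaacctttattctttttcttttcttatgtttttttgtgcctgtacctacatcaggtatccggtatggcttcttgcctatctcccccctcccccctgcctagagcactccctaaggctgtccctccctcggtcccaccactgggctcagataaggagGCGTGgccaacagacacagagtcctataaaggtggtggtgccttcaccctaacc
Cyp1b1, chr17:79715062-79715311, minus strand: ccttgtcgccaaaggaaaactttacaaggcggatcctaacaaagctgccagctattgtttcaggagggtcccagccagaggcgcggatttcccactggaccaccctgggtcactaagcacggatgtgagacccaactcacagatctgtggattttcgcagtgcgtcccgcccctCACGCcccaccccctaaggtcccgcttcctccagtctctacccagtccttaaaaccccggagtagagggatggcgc
Ahrr, chr13:74292332-74292581, minus strand: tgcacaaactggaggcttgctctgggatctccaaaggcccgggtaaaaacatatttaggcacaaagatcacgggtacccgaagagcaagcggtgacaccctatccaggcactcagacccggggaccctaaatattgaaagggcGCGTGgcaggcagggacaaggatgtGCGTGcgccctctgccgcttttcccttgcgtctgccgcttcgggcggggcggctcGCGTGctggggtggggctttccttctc
Tiparp, chr3:65528197-65528446, plus strand: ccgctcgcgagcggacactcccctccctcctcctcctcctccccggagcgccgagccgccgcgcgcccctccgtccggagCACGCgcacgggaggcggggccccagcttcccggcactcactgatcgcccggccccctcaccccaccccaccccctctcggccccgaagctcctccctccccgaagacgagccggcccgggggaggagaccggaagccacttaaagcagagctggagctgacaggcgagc
Arnt, chr3:95434140-95434389, plus strand: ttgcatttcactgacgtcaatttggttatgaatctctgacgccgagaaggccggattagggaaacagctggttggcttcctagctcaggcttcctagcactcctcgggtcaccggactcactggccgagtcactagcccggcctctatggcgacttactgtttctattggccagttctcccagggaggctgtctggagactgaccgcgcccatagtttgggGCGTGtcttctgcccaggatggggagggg

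The Ahrr window held 3 copies of the core, whose last bases lay 103, 78 and 23 bases before the start, and the copy nearest to the start was also the only match to the longer form among the 6 promoters. The windows of Cyp1a1, Cyp1b1 and Tiparp held 1 copy each, ending 50, 72 and 166 bases before the start, with those of Cyp1b1 and Tiparp on the other strand. Arnt also held 1 copy, ending 25 bases before its start, and 2 matches to TGACNNNGC. The Nqo1 window, chr8:107403206-107403455 on the minus strand, held neither GCGTG nor TGACNNNGC. A match describes the letters of the window and is not a measured binding site, and the window leaves out elements farther away, where the known enhancer cluster of Cyp1a1 lies.

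Of the 8 members, 6 were higher with TCDD than with vehicle and 0 were lower, where 6.71% of all tested genes were called in either direction, 3.21% higher and 3.5% lower. The same 6, Ahrr, Cyp1a1, Cyp1b1, Tiparp, Nqo1 and Xdh, were higher with Cl-BBQ and again 0 were lower, beside 11.3% of tested genes called in either direction, 5.31% higher and 6.03% lower. A gene entered the test with 4 arrays above the floor, and Ahrr and Cyp1b1 did so through ligand arrays alone, while Cyp1a1 had 1 and Nqo1 2 of 4 vehicle arrays above it. A member that enters through the groups where it is high has to differ, so these counts are a description of the 8 genes. Tiparp and Xdh, above the floor on all 13 arrays, were called in both comparisons. The receptor Ahr and its partner Arnt were called in neither comparison. The median difference of the 8 members was 1.14 with TCDD and 1.71 with Cl-BBQ, while the medians over all tested genes were -9e-04 and -0.01. The 2 comparisons share the vehicle arrays.

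**Figure D1:**
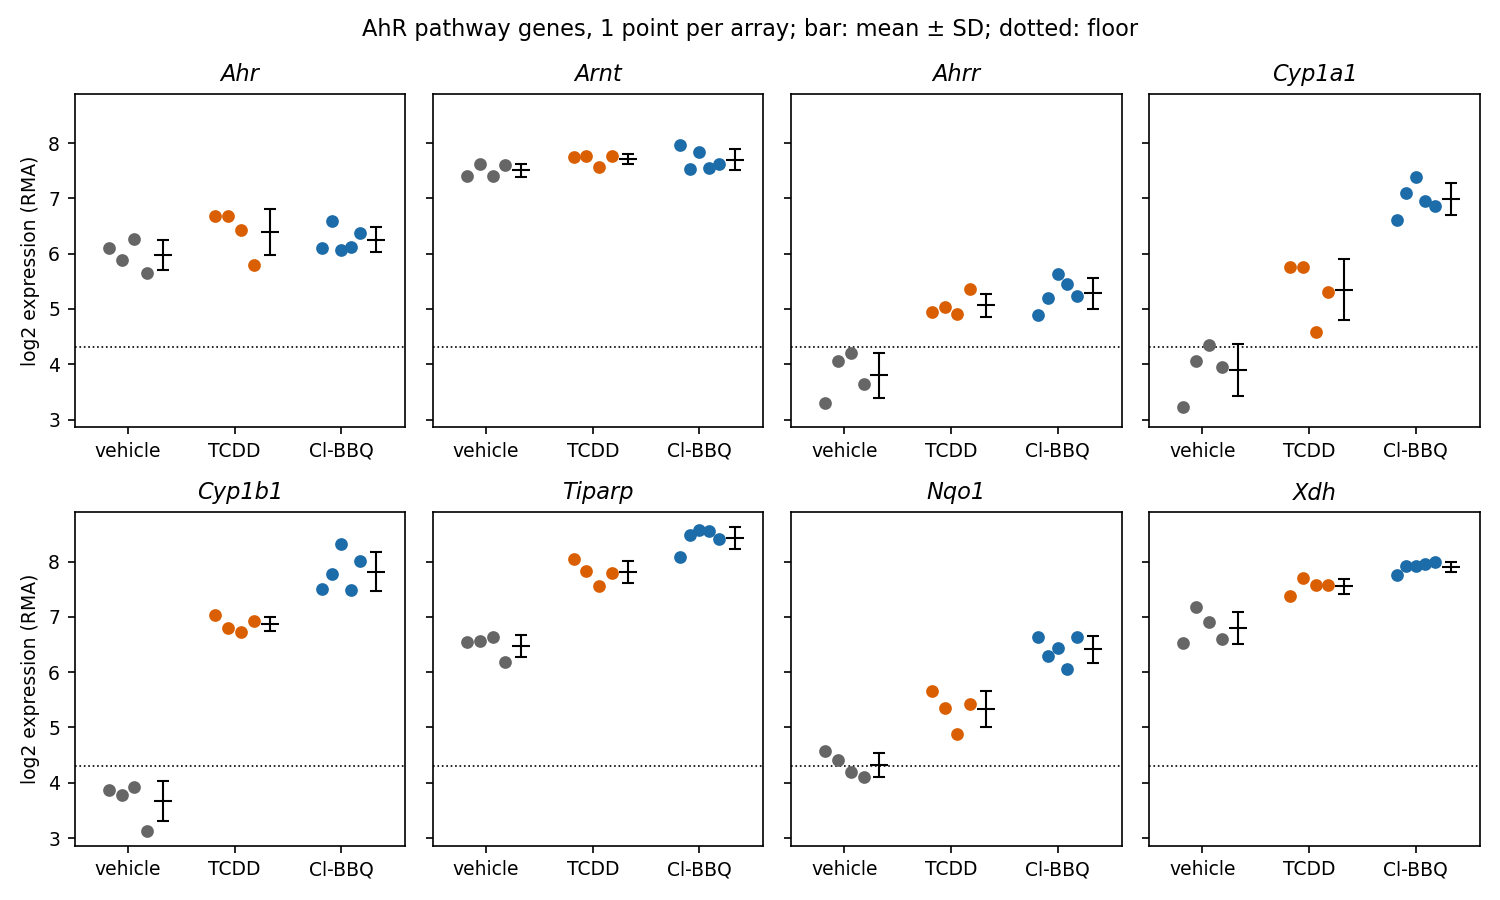
Log2 expression of the 8 members on each of the 13 arrays, with 1 panel per gene, arrays grouped as vehicle, TCDD and Cl-BBQ, points for single arrays, a bar for the mean ± SD beside them and the floor of 4.31 as a dotted line. In 6 panels every ligand array lies above every vehicle array, with the widest gap for Cyp1b1, and the groups overlap for Ahr and Arnt.

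Ahr encodes the ligand-binding receptor itself. Its levels on the 4 vehicle arrays were 6.10, 5.89, 6.26 and 5.64, on the TCDD arrays 6.68, 6.68, 6.42 and 5.79, and on the Cl-BBQ arrays 6.10, 6.60, 6.08, 6.12 and 6.37. TCDD replicate 4 lay among the vehicle arrays and the other 3 TCDD arrays above all of them, while 2 of the 5 Cl-BBQ arrays lay above all vehicle arrays. The group means were 5.97 ± 0.27 (SD, n = 4), 6.39 ± 0.42 (SD, n = 4) and 6.25 ± 0.23 (SD, n = 5). The difference with TCDD was 0.42 (SE 0.19, interval 0.00 to 0.84), which was not called at a limma adjusted p of 0.27. When 1 array at a time was left out, the difference was called only without TCDD replicate 4 (0.62, adjusted p = 0.041). Without TCDD replicate 2 the adjusted p was 0.50. With Cl-BBQ the difference was 0.28 (SE 0.18, interval -0.12 to 0.68, adjusted p = 0.41).

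Arnt encodes the nuclear partner that AhR needs to bind DNA and that other transcription factors of its family share. Its levels were 7.41, 7.62, 7.40 and 7.60 on the vehicle arrays, 7.76, 7.76, 7.57 and 7.76 on the TCDD arrays, and 7.96, 7.53, 7.84, 7.54 and 7.62 on the Cl-BBQ arrays. The groups overlapped, with TCDD replicate 3 and 3 of the Cl-BBQ arrays within the vehicle range. The differences from vehicle were 0.20 (SE 0.11, interval -0.03 to 0.44, adjusted p = 0.37) with TCDD and 0.19 (SE 0.11, interval -0.03 to 0.42, adjusted p = 0.31) with Cl-BBQ. For Ahr and Arnt, the intervals against vehicle all end below 1, a doubling.

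Ahrr encodes the AhR repressor, which competes with the receptor for ARNT and for the response element. Its vehicle levels were 3.29, 4.06, 4.20 and 3.65, its TCDD levels 4.94, 5.04, 4.92 and 5.36, and its Cl-BBQ levels 4.89, 5.20, 5.63, 5.45 and 5.24. All 9 ligand arrays lay above the floor and all 4 vehicle arrays below it, and the Cl-BBQ and TCDD arrays overlapped each other. Ahrr rose by 1.27 with TCDD (SE 0.19, interval 0.85 to 1.68, adjusted p = 7.5e-04) and by 1.49 with Cl-BBQ (SE 0.18, interval 1.09 to 1.88, adjusted p = 6.3e-05). With all values under the floor raised to it, an alternative chosen after seeing the data, the rises were 0.76 (adjusted p = 0.0032) and 0.98 (adjusted p = 1.4e-04), so their size depends on levels that were not above background.

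Cyp1a1 encodes the cytochrome P450 that oxidises polycyclic aromatic compounds and is the classic marker gene of AhR activation. Its levels were 3.23, 4.05, 4.35 and 3.96 with vehicle, 5.76, 5.76, 4.58 and 5.32 with TCDD, and 6.61, 7.09, 7.40, 6.96 and 6.86 with Cl-BBQ. The 3 groups did not overlap, 1 of the 4 vehicle arrays was above the floor, and TCDD replicate 3 was the lowest of the ligand arrays, 0.23 above the highest vehicle array. The rise was 1.45 with TCDD (SE 0.27, interval 0.88 to 2.03, adjusted p = 0.0033), or 2.74-fold, and 3.08 with Cl-BBQ (SE 0.26, interval 2.54 to 3.63, adjusted p = 1.3e-06), or 8.49-fold. Without TCDD replicate 3 the rise with TCDD was 1.71 (adjusted p = 6.6e-04). With values under the floor raised to it, the rises were 1.03 (adjusted p = 0.0094) and 2.67 (adjusted p = 7.7e-07), so the folds depend on vehicle levels of which 3 of 4 were not above background.

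Cyp1b1, a related cytochrome P450 that also acts on steroid hormones, showed the widest separation of the members. It lay at 3.86, 3.78, 3.92 and 3.14 on the vehicle arrays, all below the floor. With TCDD it lay at 7.03, 6.80, 6.73 and 6.92, and with Cl-BBQ at 7.50, 7.78, 8.32, 7.48 and 8.0025. The lowest TCDD array was 2.81 above the highest vehicle array, the lowest Cl-BBQ array was 3.56 above it, and the Cl-BBQ arrays lay above all TCDD arrays. The rises were 3.20 (SE 0.20, interval 2.78 to 3.61, adjusted p = 1.1e-07) and 4.14 (SE 0.19, interval 3.74 to 4.54, adjusted p = 2.9e-09), which correspond to 9.16-fold and 17.6-fold. They were 2.56 and 3.51 with values under the floor raised to it.

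Tiparp encodes a mono-ADP-ribosyltransferase, also known as PARP7, that modifies AhR and dampens its activity. Its levels were 6.55, 6.56, 6.63 and 6.19 with vehicle, 8.04, 7.84, 7.56 and 7.79 with TCDD, and 8.09, 8.48, 8.58, 8.56 and 8.41 with Cl-BBQ. All arrays were above the floor, the vehicle arrays were lowest, and the gap between the highest TCDD and the lowest Cl-BBQ array was 0.05. Tiparp rose by 1.33 with TCDD (SE 0.14, interval 1.03 to 1.62, adjusted p = 2.5e-05) and by 1.94 with Cl-BBQ (SE 0.13, interval 1.67 to 2.22, adjusted p = 1.8e-07). Its second probe set also rose against vehicle, with group means of 6.27, 7.75 and 8.37 and differences from vehicle of 1.49 and 2.10. There the ligand groups overlapped, as Cl-BBQ replicate 1 stood at 7.73 and the highest TCDD array at 7.81.

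Nqo1 encodes a quinone reductase that is a target of both AhR and the oxidative-stress factor NRF2. Its levels were 4.58, 4.41, 4.20 and 4.10 on the vehicle arrays, 5.65, 5.36, 4.88 and 5.42 on the TCDD arrays, and 6.63, 6.30, 6.43, 6.06 and 6.64 on the Cl-BBQ arrays. The 3 groups did not overlap, and 2 of the 4 vehicle arrays were above the floor. The rise was 1.01 with TCDD (SE 0.17, interval 0.64 to 1.37, adjusted p = 0.0017) and 2.09 with Cl-BBQ (SE 0.16, interval 1.75 to 2.44, adjusted p = 7.0e-07), or 2.01-fold and 4.26-fold. These rises were 0.93 and 2.01 with values under the floor raised to it.

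Xdh encodes xanthine dehydrogenase, the enzyme that carries out the last steps of purine breakdown to uric acid. It was above the floor on all arrays, at 6.54, 7.17, 6.90 and 6.60 with vehicle, 7.38, 7.70, 7.57 and 7.58 with TCDD, and 7.75, 7.92, 7.92, 7.95 and 7.99 with Cl-BBQ. The groups did not overlap, and the gaps were 0.20 between vehicle and TCDD and 0.05 between TCDD and Cl-BBQ. Its rises, 0.75 with TCDD (SE 0.13, interval 0.48 to 1.03, adjusted p = 0.0020) and 1.11 with Cl-BBQ (SE 0.12, interval 0.84 to 1.37, adjusted p = 2.3e-05), were the smallest of the 6 called members in both comparisons as deposited. With values under the floor raised to it the order turned with Cl-BBQ, where Ahrr stood at 0.98, and with TCDD Ahrr stood at 0.76 beside 0.75 for Xdh.

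In both comparisons the arrays of the 6 called members lay entirely above vehicle, where 13.6% of tested genes were separated in either direction with TCDD and 12.9% with Cl-BBQ, and 6.31% and 6.08% were separated upwards. Ahrr and Cyp1b1 passed the filter through ligand arrays alone, and Cyp1a1 and Nqo1 needed ligand arrays to pass it. The filter thus favours such separation for these genes, and the count is a description. By size of difference among all 12710 tested genes, Cyp1b1 ranked 7 from the top with TCDD and 5 with Cl-BBQ. Cyp1a1 ranked 41 and 10, Tiparp 52 and 32, Ahrr 55 and 62, Nqo1 106 and 29, and Xdh 203 and 135. Ahr ranked 611 and 1467, and Arnt 2071 and 2359. The ranks of the genes with low vehicle levels depend on those levels. With values under the floor raised to it, Ahrr ranked 176 and 160, Cyp1a1 85 and 13, Cyp1b1 12 and 6, and Nqo1 113 and 30, beside 177 and 123 for Xdh and 45 and 32 for Tiparp.

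**Figure D2:**
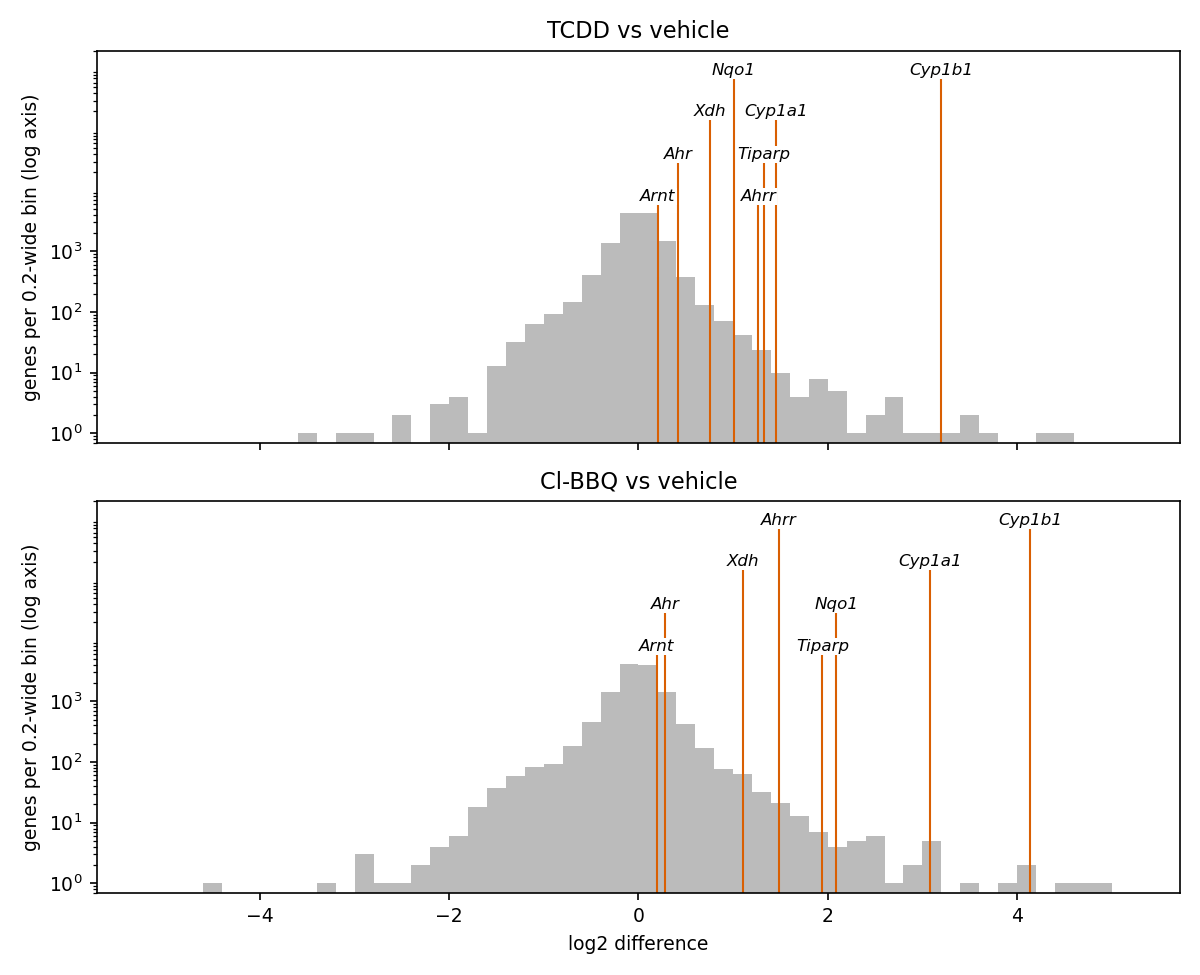
Distribution of the log2 difference from vehicle over all 12710 tested genes, for TCDD and for Cl-BBQ, with a mark at the difference of each member. Cyp1b1 stands at 3.20 and 4.14 in the upper tail, while Arnt at 0.20 and 0.19 lies in the bulk of the genes.

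The intervals of the members were set side by side within each comparison with vehicle. With TCDD, the interval of Cyp1b1 (2.78 to 3.61) lay above those of all other members, and the intervals of Cyp1a1, Tiparp, Ahrr and Nqo1 overlapped each other. With Cl-BBQ, Cyp1b1 (3.74 to 4.54) stood above Cyp1a1 (2.54 to 3.63), and Cyp1a1 above all the rest. Nqo1 (1.75 to 2.44) and Tiparp (1.67 to 2.22) then lay above Xdh (0.84 to 1.37), and Ahrr (1.09 to 1.88) overlapped all 3. The differences between genes were not tested, and those of Ahrr, Cyp1a1, Cyp1b1 and Nqo1 start from vehicle levels at or under the floor.

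**Figure D3:**
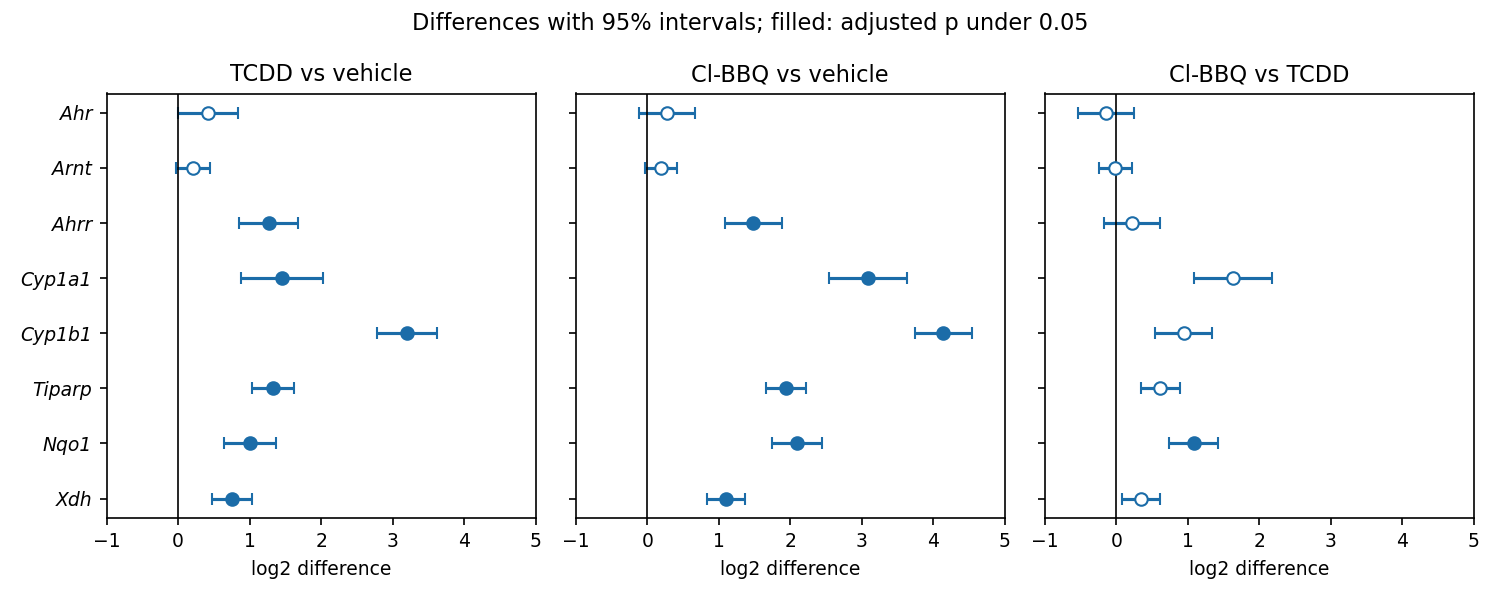
Log2 difference with its 95% interval for each of the 8 members in the comparisons of TCDD with vehicle, Cl-BBQ with vehicle and Cl-BBQ with TCDD, filled where called. The intervals of 6 members lie above 0 against vehicle in both comparisons, and in the comparison of the ligands the point for Cyp1a1 lies highest, at 1.63.

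The ligand regimens were then set against each other. Of the 8 members, 1, Nqo1, was called higher with Cl-BBQ than with TCDD and 0 were called lower, where 0.0236% of tested genes, 3 in all, were called higher and none lower. The Cl-BBQ arrays of 5 members, Cyp1a1, Cyp1b1, Tiparp, Nqo1 and Xdh, lay entirely above the TCDD arrays, beside 2.11% of tested genes separated in either direction and 1.03% upwards. For Tiparp this held for the chosen probe set alone, since the ligand groups overlapped in its second one. The difference for Nqo1 was 1.08 (SE 0.16, interval 0.74 to 1.43, adjusted p = 0.039), or 2.12-fold. This call was lost, with adjusted p up to 0.15, without any 1 of 10 arrays, namely Cl-BBQ replicates 1, 2, 3 and 5, all 4 TCDD arrays, and vehicle replicates 2 and 4, while its value stayed between 0.93 and 1.19.

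Cyp1a1 had the largest rise of all tested genes in this comparison, 1.63 (SE 0.26, interval 1.08 to 2.18), or 3.10-fold, and missed the threshold at an adjusted p of 0.0506. It was called without vehicle replicate 1 or 3 (adjusted p = 0.049 for each) and under 7 other alternatives. It stayed uncalled in 14 of 23 alternatives, with adjusted p up to 0.22, and at 0.16 without Cl-BBQ replicate 2. For Cyp1b1 the difference was 0.94 (SE 0.19, interval 0.55 to 1.34, adjusted p = 0.22), and for Tiparp 0.62 (SE 0.13, interval 0.34 to 0.90, adjusted p = 0.28). Xdh differed by 0.35 (SE 0.12, interval 0.09 to 0.62, adjusted p = 0.62). These intervals, which are not adjusted for the number of genes, do not include 0 even though the adjusted p-values missed the threshold.

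For Ahrr the ligand groups overlapped, with a difference of 0.22 (SE 0.18, interval -0.18 to 0.62, adjusted p = 0.92). For Ahr the difference was -0.14 (interval -0.54 to 0.25) and for Arnt -0.01 (interval -0.24 to 0.22), and the sign of the latter turned under 2 other scalings or fits and without single arrays. The data bound these 3 differences within the stated intervals and do not show that the regimens act alike on the 3 genes.

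Within a group, single arrays stood high or low for several members together. TCDD replicate 3 was the lowest array of its group for 6 of the 8 members, all except Ahr and Xdh, and TCDD replicate 1 was the highest for 4. In the Cl-BBQ group, replicate 3 was the highest for Ahrr, Cyp1a1, Cyp1b1 and Tiparp, and replicate 1 was the lowest for Ahrr, Cyp1a1, Tiparp and Xdh. Vehicle replicate 3 was the highest of its group for 5 members and replicate 4 the lowest for 4. How often these arrays were extreme over all tested genes was not counted, so the counts are a description of the 8 members.

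The genes whose pattern came nearest to a member were ranked over the 13 arrays by the root mean square difference between log2 values centred on each gene's vehicle mean, among 12702 other tested genes. This measure is a description and carries no test, since the genes share arrays and groups. Nearest to Cyp1b1 were Gzmb (0.32) and Gzma (0.42), which encode the granzymes B and A of cytotoxic granules, and Pltp (0.40), which encodes a phospholipid transfer protein, where the median gene stood at 3.14. Gzmb differed from vehicle by 3.67 with TCDD and 4.16 with Cl-BBQ, Pltp by 3.55 and 3.93, and Gzma by 3.45 and 4.66. This nearness was set in part by Cyp1b1 levels under the floor. With values under the floor raised to it, Pltp, Gzmb and Gzma stood at 0.56, 0.77 and 0.88 and took places 7, 11 and 20, and the nearest gene was Ifitm3, an interferon-induced membrane protein gene, at 0.30.

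Nearest to Cyp1a1 were Il7r, the interleukin 7 receptor chain (0.55), Cd7, a T cell surface protein (0.57), and Itga2, an integrin chain (0.63), beside 2.12 for the median gene and 0.78 for Tiparp, the nearest member. Il7r differed from vehicle by 1.36 with TCDD and 2.53 with Cl-BBQ, Cd7 by 2.04 and 2.65, and Itga2 by 1.93 and 2.51. With values under the floor raised to it, Il7r (0.38) and Itga2 (0.62) were the first 2 genes outside the members, and Cd7 (0.66) took place 6. The nearest member was then Nqo1 (0.50), so which member came nearest depends on levels under the floor. Il7r and Gzma were the other two genes called higher with Cl-BBQ than with TCDD, at 1.16 and 1.21, each with an adjusted p of 0.039 and, like Nqo1, each lost without any 1 of 10 and 8 arrays, respectively, with adjusted p up to 0.16 and 0.15 without Cl-BBQ replicate 2.

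For Ahrr the nearest genes as deposited were the adaptor gene Grb7 (0.25), the early activation marker Cd69 (0.26) and the receptor gene Cd96 (0.26), beside a median of 1.21. These places rested on Ahrr levels under the floor, since with values raised to it the 3 genes fell to places 361, 248 and 2359, and Emb, which encodes the membrane protein embigin, was nearest at 0.16. Cd96 (0.21) was also nearest to Tiparp, followed by Lgals3, which encodes galectin 3 (0.23), and Ecm1, an extracellular matrix protein (0.23), beside a median of 1.44. For Nqo1 they were Lgals3 (0.33), the endosomal channel gene Mcoln2 (0.36) and Il7r (0.39), beside a median of 1.45, and Tiparp and Nqo1 stood 0.32 apart. The 3 genes around Tiparp kept their places with values raised to the floor, as did Lgals3 and Mcoln2 around Nqo1, while Il7r took place 17. Cd69 differed from vehicle by 1.12 and 1.40, Cd96 by 1.49 and 1.77, and Lgals3 by 1.17 and 1.73, with TCDD and Cl-BBQ respectively.

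**Figure D4:**
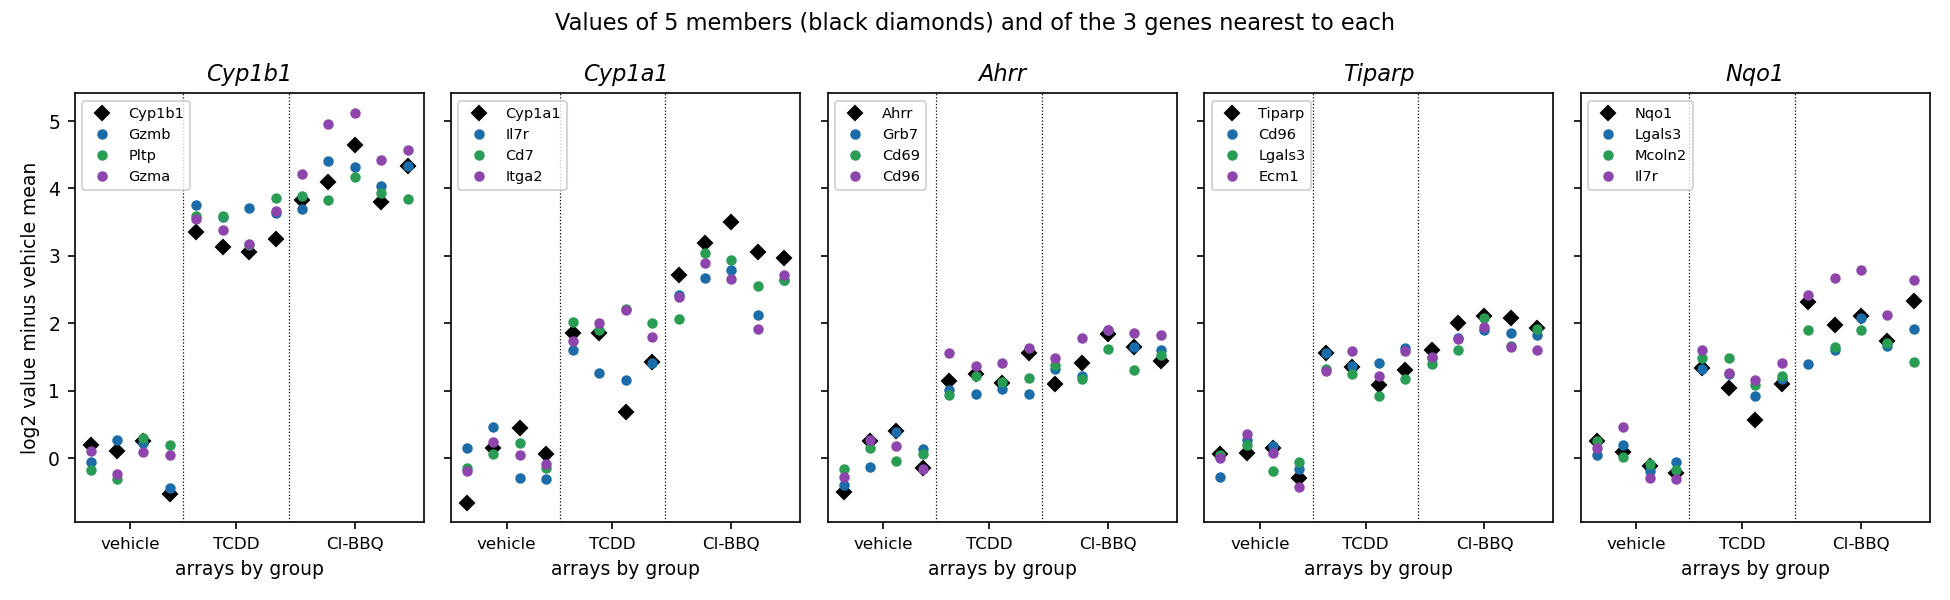
Log2 level minus the gene's own vehicle mean on each of the 13 arrays, for 5 members and the 3 genes nearest to each by root mean square difference. For Cyp1b1 the 3 neighbours rise with TCDD by 3.45 to 3.67 and with Cl-BBQ by 3.93 to 4.66, beside 3.20 and 4.14 for Cyp1b1 itself.

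The other genes around the members were counted by lists, to be read beside the shares of all tested genes called, 3.21% higher and 3.5% lower with TCDD and 5.31% higher and 6.03% lower with Cl-BBQ. Among 16 tested genes of the AhR complex and its cofactors, 0 rose and 2 fell with TCDD, and 1 rose and 2 fell with Cl-BBQ, with medians of -0.01 and -0.00. Nrip1, a nuclear receptor corepressor, fell by 0.40 with TCDD (adjusted p = 0.022) and by 0.46 with Cl-BBQ (adjusted p = 0.0034). Hsp90aa1, an inducible form of the HSP90 chaperone that holds the unliganded receptor, fell by 0.35 (adjusted p = 0.018) and by 0.26 (adjusted p = 0.045). Ncoa3, a coactivator, rose by 0.27 with Cl-BBQ (adjusted p = 0.0495), and the TCDD difference was 0.28 (adjusted p = 0.068).

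Several of these calls rested on single arrays or on the fit. The TCDD call of Nrip1 was lost without TCDD replicate 3 or 4 or vehicle replicate 1 or 2 (adjusted p up to 0.077), and that of Hsp90aa1 without TCDD replicate 2 or 3 or vehicle replicate 2 or 4 (up to 0.060). With Cl-BBQ, Hsp90aa1 was lost without any 1 of 11 arrays (all but TCDD replicate 4 and vehicle replicate 1, adjusted p up to 0.12) and Ncoa3 without any 1 of 12 (all but Cl-BBQ replicate 3, up to 0.10). The TCDD call of Nrip1 was also lost without a filter (adjusted p = 0.051), and that of Hsp90aa1 with the replicate number as a block (0.064) and with only the groups compared (0.052). The Cl-BBQ calls of Hsp90aa1 and Ncoa3 were each lost under 5 further alternatives, with the block at adjusted p = 0.13 and 0.16. The TCDD difference of Ncoa3 was called without Cl-BBQ replicate 1 or 3, with trended, robust moderation and with array weights (adjusted p down to 0.031).

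In the bHLH-PAS family, the protein family of AhR and ARNT that includes the hypoxia factors and the clock proteins, 9 genes were tested, and limma called 0 in each comparison with vehicle, with 1 and 3 at an unadjusted p under 0.05. Of 18 named further genes of the AhR battery, 9 were below the floor, among them Cyp1a2, Aldh3a1, Il22 and Ido1, and 9 were tested. With TCDD limma called 0 of these 9 (2 at an unadjusted p under 0.05), and with Cl-BBQ it called 0 higher and 1 lower (3 at an unadjusted p under 0.05). The differences of the 9 ran from -0.54 to 0.285 with TCDD (median 0.15) and from -0.68 to 0.61 with Cl-BBQ (median 0.12). The called gene was Slc7a5, a transporter of large amino acids that also carries tryptophan and kynurenine, which fell by 0.68 with Cl-BBQ (adjusted p = 0.016) and differed by -0.54 with TCDD (adjusted p = 0.096). Its Cl-BBQ call was lost without vehicle replicate 3 (adjusted p = 0.063) and with the replicate number as a block (adjusted p = 0.083), and a TCDD call appeared without TCDD replicate 4 (0.035) or vehicle replicate 4 (0.019). Slc7a5 was also the only called gene among 5 tested genes of endogenous ligand supply, where 0 were called with TCDD and 2 had an unadjusted p under 0.05.

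Among 10 tested NRF2 targets beside Nqo1, limma called 0 with TCDD (2 at an unadjusted p under 0.05), while 1 rose and 1 fell with Cl-BBQ, beside 6.71% and 11.3% of all tested genes called. Osgin1, an oxidative-stress-induced growth inhibitor, rose by 0.47 with Cl-BBQ (adjusted p = 0.0055) and differed by 0.35 with TCDD (adjusted p = 0.064). Gclm, the modifier subunit of the enzyme that starts glutathione synthesis, fell by 0.45 with Cl-BBQ (adjusted p = 0.022), a call that was lost without Cl-BBQ replicate 2 or 4 or vehicle replicate 1 or 2 (adjusted p up to 0.076) and with the replicate number as a block (0.051). Its TCDD difference of -0.43 (adjusted p = 0.053) was called without Cl-BBQ replicate 1 or 3 or TCDD replicate 2 and under 6 further alternatives (adjusted p down to 0.026). That of Osgin1 was called without Cl-BBQ replicate 4 or vehicle replicate 4, with a stricter floor and with array weights (down to 0.033). Hmox1, the haem oxygenase that NRF2 induces, differed from vehicle by 0.03 and -0.02.

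Among 12 tested genes of purine metabolism beside Xdh, 0 rose and 2 fell with TCDD, and 1 rose and 2 fell with Cl-BBQ, beside 6.71% and 11.3% of all tested genes called, with medians of -0.13 and -0.25. Adk, adenosine kinase, fell by 0.62 with TCDD (adjusted p = 0.013) and by 1.02 with Cl-BBQ (adjusted p = 1.0e-04). Dck, deoxycytidine kinase, fell by 0.56 (adjusted p = 0.012) and by 0.87 (adjusted p = 1.4e-04), and both kinases kept their calls without each of the 13 arrays. These 2 enzymes salvage nucleosides and do not break purines down. Ada, adenosine deaminase, rose by 0.52 with Cl-BBQ (adjusted p = 0.039), and the call was lost without Cl-BBQ replicate 2, 3 or 4 or vehicle replicate 1, 2 or 4 (adjusted p up to 0.13), with arrays centred on their medians (0.051) and without a filter (0.072).

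In the PARP family beside Tiparp, 14 genes were tested, and 0 rose and 2 fell in each comparison with vehicle, beside 3.5% of all tested genes called lower with TCDD and 6.03% with Cl-BBQ. Parp1, the DNA-damage-activated enzyme that gives the family its name, fell by 0.51 with TCDD (adjusted p = 0.016) and by 0.55 with Cl-BBQ (adjusted p = 0.0045). Parp8 fell by 0.47 (adjusted p = 0.040) and by 0.64 (adjusted p = 0.0021). The Cl-BBQ calls of both held without each array, while the TCDD call of Parp1 was lost without either array numbered 4 of the TCDD and vehicle groups (adjusted p up to 0.055) and that of Parp8 without any 1 of 8 arrays (TCDD replicates 1 to 3, Cl-BBQ replicates 2 and 4, and vehicle replicates 1, 2 and 4, up to 0.13). The latter was also lost with repeated quantile normalization (adjusted p = 0.054), without a filter (0.079) and with only the groups compared (0.0501). In the comparison of the ligands, limma called 0 genes in each of the 7 lists, with at most 3 of a list at an unadjusted p under 0.05.

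**Figure D5:**
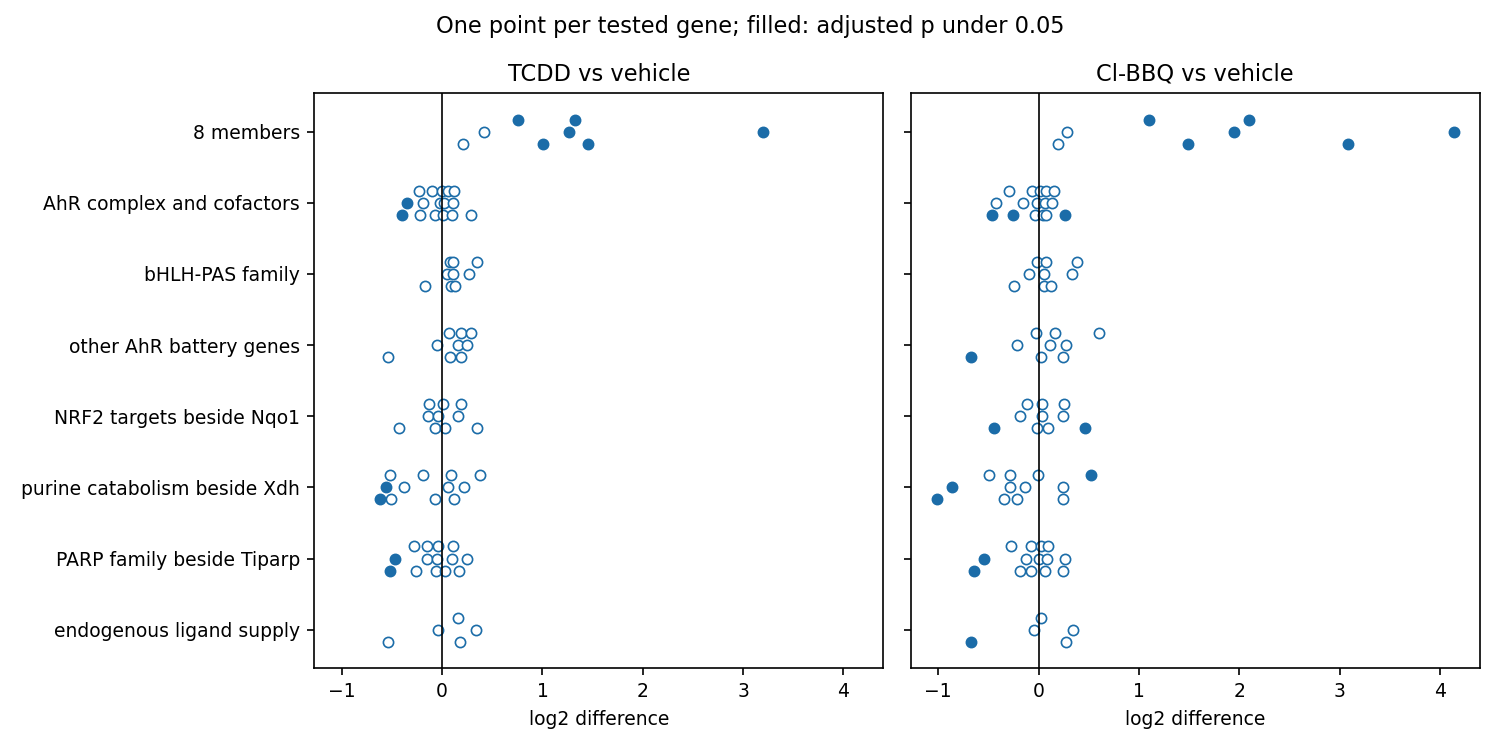
Log2 difference from vehicle of the 8 members (top row) and of each tested gene in the 7 lists, with 1 point per gene, for TCDD and Cl-BBQ, called genes filled. The points of the lists lie between -1.02 and 0.61, and the lowest is Adk with Cl-BBQ, at -1.02.

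The cell type was checked against marker lists. All 8 CD4 T cell markers were above the floor in every group. Their mean levels were 10.48 (arrays 10.40 to 10.56) with vehicle, 10.63 (10.61 to 10.65) with TCDD and 10.64 (10.56 to 10.71) with Cl-BBQ. In this mean all TCDD arrays lay above all vehicle arrays, while limma called 0 of the 8 genes against vehicle. Cd4 itself stood at 10.52, 10.58 and 10.58 in the vehicle, TCDD and Cl-BBQ groups. The 6 named B cell markers had mean levels of 4.52 (arrays 4.40 to 4.66), 4.21 (4.08 to 4.35) and 4.29 (4.18 to 4.41). Of the 6, 5 had medians above the floor with vehicle and 4 with either ligand. Ms4a1 was below it in all groups and Cd22 with either ligand. Of the 5 tested B cell markers, Cd22 alone was called. It fell from 6.17 to 4.03 with TCDD (adjusted p = 9.8e-07) and 4.10 with Cl-BBQ (adjusted p = 3.8e-07), and the list means include it. The 6 named macrophage and monocyte markers had means of 4.21 (4.20 to 4.23), 4.09 (4.01 to 4.24) and 4.19 (4.00 to 4.31), with Adgre1, Lyz2 and Cd14 below the floor in all groups. Csf1r and Fcgr1 had medians above the floor with vehicle and below it with either ligand, and neither was called. Of this list Cd68 alone was called, and it rose from 6.47 to 7.27 (adjusted p = 0.024) and 7.11 (adjusted p = 0.040), and these calls were lost without any 1 of 5 and 7 arrays, respectively (vehicle replicate 1, 3 or 4 or TCDD replicate 1 or 4, and vehicle replicate 1, 3 or 4 or Cl-BBQ replicate 2, 3, 4 or 5). They were also lost with only the groups compared (TCDD, adjusted p = 0.060) and without a filter, with array weights or with the block (Cl-BBQ, up to 0.071). The named dendritic cell, neutrophil and NK cell markers had group means of 3.52 to 4.72 and the 2 named CD8 T cell markers of 5.46, 5.61 and 5.83, with 0 of the tested ones called against vehicle. Cd8a had a median below the floor with vehicle and above it with either ligand. The part of other cell types in the differences of the members was not tested.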

How the data were processed

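RNA of 13 samples was measured on single-colour arrays with biotin-labelled targets. The authors deposited log2 expression values for 41345 probe sets per array, made with RMA per the submitters' processing notes. The sources used here do not state RMA's version or settings. RMA equalises the distributions of the arrays and so hides a rise or fall common to all transcripts, and array values carry no read depth: the number of arrays limits the precision.

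Gene names came from GEO's platform annotation, and old symbols were replaced through gene identifiers with those of the GRCm38.p6 gene table. Of the probe sets, 23521 had 1 symbol, 1814 had several and named no gene, and 16010 were unnamed here. Genes above 4.31, the median of all values, on at least 4 arrays were tested. In R 4.3.3, limma 3.58.1 fitted the mean of each of the 3 groups for all 12710 genes in a single model with 10 residual degrees of freedom, and the 3 contrasts were tested two-sided with Benjamini-Hochberg adjustment within each.

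The members and gene lists were chosen with earlier results of these data known. All members were named, as were up to 4 called genes of each list and the 3 nearest genes of Cyp1b1, Cyp1a1, Ahrr, Tiparp and Nqo1. List members called in a comparison with vehicle were ranked by adjusted p. Gzma and Il7r, called between the ligands, Hmox1, Ifitm3, Emb and the markers named were chosen after their values were seen. The pipeline was tested on simulated data. The 23 alternatives changed the normalization, floor, probe set rule, moderation, array weights, arrays fitted and block. Promoter sequences came from RefSeq (GRCm38.p6). RNA quality and scan dates were not used here.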

Additional observations from a re-analysis of the deposited data

Results flagged for a closer look

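A test for a single distant array was run on 27 groups of arrays, 3 for each of the 9 probe sets, and chance alone flags about 5% of groups. It found 2, both from TCDD replicate 3. In Arnt that array stood at 7.57 while the next TCDD array stood at 7.76, and the gap was 0.957 of the group's range. In the second probe set of Tiparp it stood at 7.61 beside 7.79, and the gap was 0.873 of the range, and both shares exceed the 95% critical value of Dixon's test for 4 samples. The same array was the lowest TCDD array for 6 of the 8 members, and without it the rise of Cyp1a1 with TCDD was 1.71 instead of 1.45.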

How the results depend on the processing

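Across 23 alternatives, the 6 called members kept their call and direction against vehicle in 276 of 276 fits, with adjusted p at most 0.016. Many of these fits could not change a difference, as leaving out a Cl-BBQ array leaves that of TCDD from vehicle as it was. Ahrr and Cyp1b1 entered the test through ligand arrays alone, so the count is a description. The genes called with TCDD numbered 644 to 955 without single arrays and 685 to 1063 otherwise, and those with Cl-BBQ 1185 to 1433 and 1114 to 1610. Between the ligands, 3 genes were called. Other settings gave 6 after repeated quantile normalization, 5 with a stricter floor, 5 with the mean of probe sets, 6 with trended, robust moderation, 7 with array weights and 7 with low values raised to the floor. The count was 0 without a filter, with only the groups compared and with the replicate block, and 0 to 5 without single arrays. In 11 alternatives it was 0, with 681 to 1266 genes at an unadjusted p under 0.05. Nqo1 lost this call in 13 alternatives and Cyp1a1 gained it in 9, and Cyp1b1 gained it (adjusted p = 0.036) with low values raised to the floor. The difference of Arnt between the ligands, -0.01, was 0.0087 with arrays centred on their medians, 0.0076 with the replicate block and between -0.0773 and 0.0312 without single arrays. The cause of these shifts was not tested. No pairing of the samples by replicate number was seen: in 12 pairs the deviations of same-numbered arrays correlated between -0.06 and 0.08. Such values cannot exclude a pairing that left little trace in the levels. With the replicate block 714 genes were called with TCDD and 1114 with Cl-BBQ. Vehicle levels at or under the floor limit the sizes for Ahrr, Cyp1a1, Cyp1b1 and Nqo1.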
